A study of Homo sapiens with 4 samples.

Results

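The respiratory chain genes considered here are nuclear genes for subunits of the 5 complexes of oxidative phosphorylation, read in NCI-H460 cells, an established line of human non-small cell lung cancer. They were taken by symbol: NDUFA, NDUFB, NDUFC, NDUFS and NDUFV genes with a number, NDUFAB1, SDHA to SDHD, and every symbol beginning with UQCR, COX4 to COX8 or ATP5 and a letter. Subunits with other symbols, such as CYC1 (complex III) and USMG5 and C14orf2 (complex V), are not in the counts by complex. Of 26364 genes counted, 89 symbols matched, 2 of them pseudogenes (ATP5EP2 and UQCRBP1) that were left out, so that 87 genes remained. Of these, 83 code for subunits, namely 37 of complex I, 4 of complex II, 9 of complex III, 17 of complex IV and 16 of complex V. In spite of its symbol, NDUFA4 was counted in complex IV and not in complex I. The other 4 matched by name without being subunits: the read-through ATP5J2-PTCD1, ATP5S, ATP5SL and COX7A2L.

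Messenger RNA had been sequenced in 4 libraries of this line, 1 for each group. The groups were cells given 4 Gy of gamma radiation and then 2 uM of DZNep, unirradiated cells given DZNep, cells given 4 Gy and then DMSO, and unirradiated cells given DMSO, the solvent. Drug or solvent was left on for 48 h. DZNep (3-deazaneplanocin A) blocks S-adenosylhomocysteine hydrolase and thereby inhibits methyltransferases, EZH2 among them. The design crosses the drug with radiation, but no group has a second library, so a difference between 2 libraries has no replicate check and cannot be told apart from a difference between 2 cultures. Fewer cells that make a transcript and less of it per cell cannot be told apart either. The libraries held 116234177 counts (DZNep, 4 Gy), 128255695 (DZNep, 0 Gy), 112461380 (DMSO, 4 Gy) and 136594350 (DMSO, 0 Gy).

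Complex I takes electrons from NADH, complex II from succinate, and both pass them through ubiquinone to complex III. From there cytochrome c carries them to complex IV, which reduces oxygen. Complexes I, III and IV pump protons across the inner mitochondrial membrane, and complex V, the ATP synthase, lets them flow back to make ATP. Complex II is encoded by nuclear genes alone, whereas the other 4 complexes also hold subunits made from mitochondrial DNA, whose transcripts were not analysed here. Many of the nuclear genes are known to be driven by the transcription factors NRF1, GABP (which binds ETS motifs) and YY1.

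The promoters of these genes held motifs of the 3 factors in larger shares than promoters of tested genes at large. Each of the following 120-base stretches was read 5′ to 3′ on the gene's strand from RefSeq (GRCh38.p14), with matches to a motif of one of them in capitals. They show 1 gene of each complex, and the gene of complex V, ATP5J, fell with DZNep. All of them held a match, whereas 37 of 66 subunit promoters (56.1%) held at least 1 of the motifs. ATP5J was also the only fallen gene with a promoter entry that held the ETS motif, so the stretches are not typical of the set.
NDUFS3 (complex I, chr11:47578954-47579073, plus strand): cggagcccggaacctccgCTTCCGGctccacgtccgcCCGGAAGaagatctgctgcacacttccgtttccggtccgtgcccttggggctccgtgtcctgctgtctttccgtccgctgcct
SDHA (complex II, chr5:218200-218319, plus strand): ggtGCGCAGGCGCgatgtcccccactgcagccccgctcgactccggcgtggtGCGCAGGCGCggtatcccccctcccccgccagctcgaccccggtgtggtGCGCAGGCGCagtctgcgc
UQCRFS1 (complex III, chr19:29213152-29213271, minus strand): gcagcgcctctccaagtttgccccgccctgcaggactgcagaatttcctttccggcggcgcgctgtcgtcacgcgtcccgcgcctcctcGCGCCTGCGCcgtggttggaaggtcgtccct
COX6A1 (complex IV, chr12:120437993-120438112, plus strand): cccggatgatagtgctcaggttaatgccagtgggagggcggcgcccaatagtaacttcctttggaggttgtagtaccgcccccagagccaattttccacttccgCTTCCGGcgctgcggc
ATP5J (complex V, chr21:25735055-25735174, minus strand): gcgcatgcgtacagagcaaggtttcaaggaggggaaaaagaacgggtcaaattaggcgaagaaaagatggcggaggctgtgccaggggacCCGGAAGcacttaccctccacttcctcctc

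SDHA carried 3 copies of the NRF1 motif, which is GCGCA and GCGC with any base between, UQCRFS1 carried 1, and NDUFS3, COX6A1 and ATP5J carried the ETS motif CCGGAAG on one strand or the other. A promoter entry of 250 bases before to 50 bases after the start was found for 66 of the 83 subunit genes. The NRF1 motif was in 16 of them (24.2%), the ETS motif in 19 (28.8%) and the YY1 motif ATGGCGGC in 12 (18.2%), with both strands searched and no overlap between matches of different motifs. Among the promoters of 10262 tested genes the shares were 11.6%, 19.1% and 6.42% in the same order, and among all 27305 promoters in the table they were 6.28%, 10.7% and 3.21%. At least 1 of the 3 motifs was in 37 of the 66 (56.1%), against 32.1% of tested genes. A match describes letters, not a bound site.

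A gene was kept for testing when it reached 1 CPM (count in a library scaled to 1000000) in at least 2 libraries, which held for 13378 genes and for 75 of the 83 subunit genes. Their mean level over the 4 libraries ran between 1.184 CPM for ATP5L2 and 1152 CPM for ATP5G3, with a median of 64.45 CPM, and 68 of them averaged 10 CPM or more. Over all tested genes the median was 14.25 CPM and 7779 of 13378 averaged 10 CPM or more, in values that are not scaled to transcript length. The 8 that did not pass were COX4I2, COX6A2, COX6B2, COX7A1, COX7B2, COX8C, NDUFS4 and UQCRHL. Subunits of this size often have processed pseudogenes: 45 of the 75 have at least 1 pseudogene named after them (COX6C has 17, NDUFA5 and NDUFB4 have 12 each), and how reads shared with such copies were counted is not given in the sources used here. ATP5L2 and UQCRHL are near-copies of ATP5L and UQCRH, and ATP5J2 overlaps its read-through, so these counts are uncertain.

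Most of the filtered genes are isoforms known from particular tissues. COX4I2, COX6A2, COX7B2 and COX8C had 0 counts in every library, where 3 counts correspond to 0.0217 to 0.0267 CPM. COX6A2 is the heart and skeletal muscle form, and COX7A1 likewise, with 2 and 5 counts in the DZNep libraries (4 Gy, 0 Gy) and 0 counts in both DMSO libraries. The general forms carried the signal: COX6A1 had 329.6 and 248.2 CPM with DZNep (4 Gy, 0 Gy) and 255.2 and 241.5 CPM with DMSO (4 Gy, 0 Gy), and COX4I1 had 36.61 and 29.09 CPM with DZNep and 34.02 and 36.25 CPM with DMSO. NDUFS4, an accessory subunit of complex I, is no tissue isoform and still stayed under 1 CPM in all 4 libraries, at 99 and 69 counts with DZNep and 70 and 75 counts with DMSO.

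With DZNep, 10 of the 75 subunit genes fell and none rose. The comparison asks what the drug did across both doses: an additive model of drug and dose was fitted over the 4 libraries to all 13378 genes with edgeR (quasi-likelihood F test), and a gene counts as changed at an adjusted p of 0.05 or less. Its error rests on 1 residual degree of freedom, moderated across genes. That residual is the departure of the 4 libraries from additive effects of drug and dose. In it, interaction and differences between cultures cannot be told apart, so the SEs and p-values do not measure a spread between replicates. The 10 falls are 13.3% of the 75, beside 12.3% of all tested genes, so the share that fell is near the background. The share that rose was 0, beside 10.8% of all tested genes. At an unadjusted p under 0.05, 18 subunit genes were lower and 1 (ATP5D) was higher, and DESeq2 called 10 lower and 0 higher. In models with the drug alone and no term for dose, 2 subunit genes (NDUFB5 and NDUFV3) fell and 0 rose, beside 366 and 355 of all tested genes. The median DZNep effect was a log2 fold change of -0.17 over the subunit genes, beside -0.02 over all tested genes.

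By complex, complex I had 7 falls among 36 tested genes and complex V had 3 among 16, while complexes II, III and IV had 0 among 4, 8 and 11. Beside the 12.3% of all tested genes that fell, so few genes in the last 3 complexes allow no reading of their counts of 0. In those 3 complexes 1, 1 and 0 genes were lower at an unadjusted p under 0.05, and DESeq2 called none. Whether the complexes differ in this share was not tested.

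**Figure D1:**
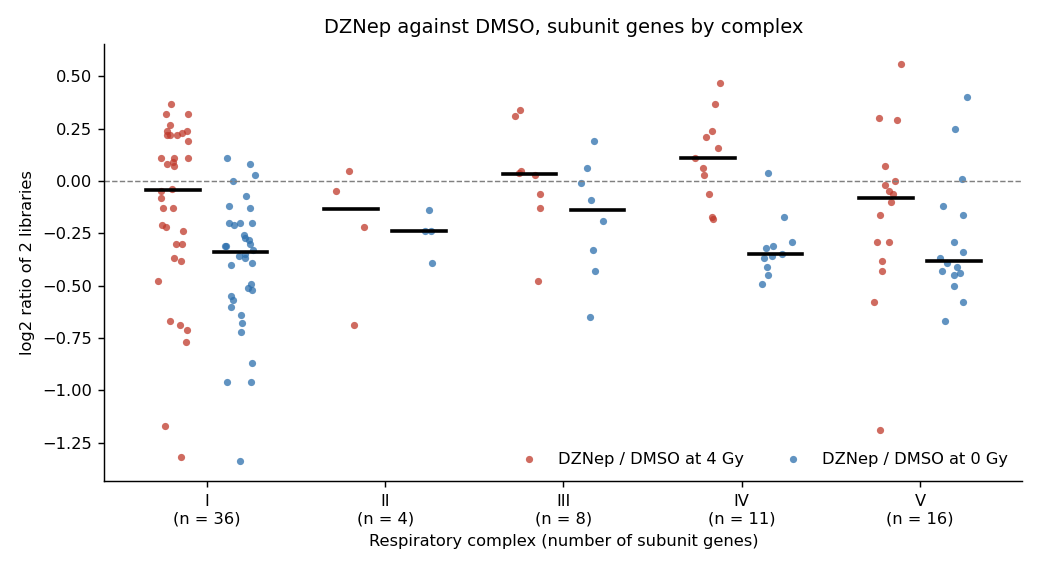
Log2 ratio of DZNep over DMSO for each of the 75 tested subunit genes by complex, at 4 Gy and at 0 Gy, with 1 point per gene and the median marked. The medians lie between -0.13 and 0.11 at 4 Gy and between -0.38 and -0.14 at 0 Gy.

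All 7 complex I genes that fell code for accessory subunits, which surround the catalytic core. NDUFB6, in the membrane arm, had 8.004 and 13.48 CPM in the DZNep libraries (4 Gy, 0 Gy), against 20.02 and 24.72 CPM in the DMSO libraries (4 Gy, 0 Gy), changing by -1.10 ± 0.19 on the log2 scale (SE; edgeR's adjusted p = 0.00149). NDUFB5, also in the membrane arm, had 12.02 and 16.08 CPM with DZNep, against 27.02 and 31.33 CPM with DMSO, a change of -1.07 ± 0.17 (adjusted p = 0.000988). NDUFV3, at the NADH-oxidising tip, had 45.33 and 35.89 CPM with DZNep, against 77.39 and 90.63 CPM with DMSO, a change of -1.05 ± 0.18 (adjusted p = 0.00119). In each of these 3 genes both DZNep libraries lay well below both DMSO libraries. Both lay below in 27.8% of all tested genes. Here and for the fallen genes below, the test that picked the genes used the same libraries, so this separation adds no support.

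The other 4 fell by less. NDUFA10, a membrane arm subunit related to nucleoside kinases, had 41.88 and 45.67 CPM with DZNep, against 68.75 and 73.08 CPM with DMSO, changing by -0.70 ± 0.15 on the log2 scale (SE; edgeR's adjusted p = 0.00686). NDUFA7, in the matrix arm, had 31.14 and 22.51 CPM with DZNep, against 43.54 and 37.02 CPM with DMSO, a change of -0.60 ± 0.17 (adjusted p = 0.0205). NDUFC2, in the membrane arm, had 83.42 and 129.8 CPM with DZNep, against 134.6 and 160.9 CPM with DMSO, a change of -0.50 ± 0.16 (adjusted p = 0.0372). The groups of these 3 genes did not overlap, although the unirradiated DZNep library of NDUFC2 came close to the irradiated DMSO one and its call was lost when no filter on low counts was applied (adjusted p = 0.0714). NDUFA5, in the matrix arm, had 8.039 and 13.94 CPM with DZNep, against 12.77 and 20.73 CPM with DMSO, so its groups overlap, with a change of -0.62 ± 0.18 (adjusted p = 0.027).

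None of the 7 tested core subunits of complex I passed the test (2 were lower at an unadjusted p under 0.05, and DESeq2 called 0). NDUFV1, which binds FMN and takes the electrons from NADH, had 92.37 and 71.75 CPM with DZNep, against 78.57 and 70.26 CPM with DMSO, a change of 0.13 ± 0.15 on the log2 scale (edgeR's adjusted p = 0.572). NDUFS1, which holds iron-sulfur clusters, had 141.6 and 149.2 CPM with DZNep, against 183 and 190.5 CPM with DMSO, a change of -0.36 ± 0.15 (adjusted p = 0.0918). NDUFS7, next to the ubiquinone site, had 87.38 and 71.35 CPM with DZNep, against 90.17 and 85.93 CPM with DMSO, a change of -0.16 ± 0.15 (adjusted p = 0.496). Of the 29 accessory subunits 7 fell (24.1%), beside 12.3% of all tested genes. The core genes are too few for their count of 0 to be read against that share, and the difference from the core was not tested.

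In complex V, ATP5J and 2 of the 3 genes for the c ring fell. ATP5J, the peripheral stalk subunit known as coupling factor 6, had 41.51 and 56.88 CPM with DZNep, against 94.84 and 85 CPM with DMSO, changing by -0.89 ± 0.18 on the log2 scale (SE; edgeR's adjusted p = 0.00384). The rotating ring of the ATP synthase is built from 1 mature protein, subunit c, encoded by ATP5G1, ATP5G2 and ATP5G3, which differ in their import sequences. ATP5G3 had 892.4 and 919 CPM with DZNep, against 1333.9 and 1462.6 CPM with DMSO, a change of -0.63 ± 0.13 (adjusted p = 0.0044). ATP5G2 had 649.2 and 572.2 CPM with DZNep, against 873 and 784.2 CPM with DMSO, a change of -0.44 ± 0.13 (adjusted p = 0.03). Both DZNep libraries lay below both DMSO libraries in these 3 genes.

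ATP5G1 had 281.9 and 277.9 CPM with DZNep, against 268.8 and 360.2 CPM with DMSO, with overlapping groups and a change of -0.15 ± 0.15 on the log2 scale (edgeR's adjusted p = 0.504). Per kilobase of transcript the mean levels were 1368.2 CPM for ATP5G3 (842 bases), 819.6 CPM for ATP5G2 (878 bases) and 490.4 CPM for ATP5G1 (606 bases), so the c-ring gene with the lowest level was the one that did not pass. Whether its response differs from those of the others was not tested.

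The catalytic F1 head had no fall among 5 tested genes (1 was lower and 1 higher at an unadjusted p under 0.05, and DESeq2 called 0). Beside the 12.3% of all tested genes that fell, so few genes allow no reading of that count of 0. The difference from the rest of complex V was not tested. ATP5A1, the alpha subunit, had 921.1 and 976.8 CPM with DZNep, against 983.9 and 1092.6 CPM with DMSO. ATP5B, the beta subunit, had 642.5 and 681.8 CPM with DZNep, against 650.6 and 675.2 CPM with DMSO. For these alpha and beta genes the log2 fold changes were -0.13 ± 0.13 and 0.00 ± 0.13 (SE), and neither passed the test. ATP5D, the delta subunit of the central stalk, was the one subunit gene of the 75 that was higher at an unadjusted p under 0.05, with 290.5 and 281.1 CPM with DZNep, against 238.2 and 213.7 CPM with DMSO, and it did not pass after adjustment (adjusted p = 0.102 in edgeR).

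**Figure D2:**
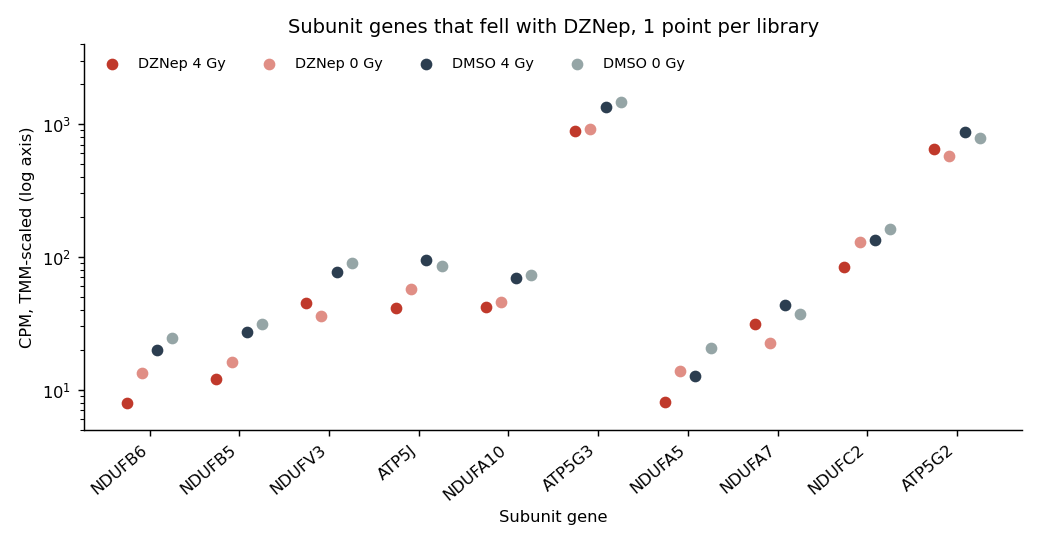
Level in CPM (log axis) of the subunit genes that fell with DZNep, with 1 point per library in the order DZNep 4 Gy, DZNep 0 Gy, DMSO 4 Gy and DMSO 0 Gy. In NDUFA5 the groups overlap, at 8.039 and 13.94 CPM with DZNep and 12.77 and 20.73 CPM with DMSO.

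Complex II had 4 tested genes and no call. SDHA, the flavoprotein that oxidises succinate, had 45.43 and 42.44 CPM with DZNep, against 52.84 and 50.2 CPM with DMSO. SDHB, the iron-sulfur subunit, had 54.94 and 52.2 CPM with DZNep, against 53.07 and 68.27 CPM with DMSO. The groups overlapped for SDHB. For SDHA both DZNep libraries lay below both DMSO libraries, as in 27.8% of all tested genes, and it did not pass (adjusted p = 0.317 in edgeR). The membrane anchor SDHC had 411.3 and 485.2 CPM with DZNep, against 662.1 and 535.6 CPM with DMSO, changing by -0.41 ± 0.16 on the log2 scale (SE; edgeR's adjusted p = 0.0727). The other anchor, SDHD, had 40.41 and 47.17 CPM with DZNep, against 41.76 and 55.86 CPM with DMSO, and its groups overlapped.

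In complex III none of 8 tested genes passed. UQCRC1 and UQCRC2 code for the core proteins: UQCRC1 had 72.28 and 68.85 CPM with DZNep, against 57.09 and 65.88 CPM with DMSO. UQCRC2 had 105.7 and 120.7 CPM with DZNep, against 110 and 106 CPM with DMSO. UQCRFS1, the Rieske iron-sulfur protein, had 68.56 and 63.99 CPM with DZNep, against 55.48 and 64.64 CPM with DMSO. None of these differences passed the test, with log2 fold changes of 0.20 ± 0.16, 0.06 ± 0.15 and 0.15 ± 0.16 (SE). The lowest DZNep over DMSO ratios of the complex were those of UQCRB at 4 Gy (log2 -0.48) and of UQCRH, the hinge protein, at 0 Gy (log2 -0.65).

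Complex IV gave no call among 11 tested genes. At 4 Gy the DZNep over DMSO log2 ratios ran between -0.18 for COX6B1 and 0.47 for COX7A2, and at 0 Gy between -0.49 for COX6B1 and 0.04 for COX6A1. COX6B1, which joins the monomers of the complex, had 89.81 and 86.26 CPM with DZNep, against 101.6 and 120.9 CPM with DMSO, changing by -0.33 ± 0.16 on the log2 scale (SE; edgeR's adjusted p = 0.146). COX7A2 had 11.21 and 10.18 CPM with DZNep, against 8.068 and 11.48 CPM with DMSO. Their partners COX6B2 and COX7A1 did not pass the filter, and of the other pairs COX7B and COX8A were measured without COX7B2 and COX8C.

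The drug ratio was below 0 in more subunit genes without radiation than with it, a difference that was not tested. At 0 Gy the DZNep over DMSO log2 ratio was below 0 for 65 of the 75 subunit genes (86.7%), beside 52.1% of all tested genes, with a median of -0.33. At 4 Gy it was below 0 for 39 of the 75, beside 50.4%, with a median of -0.04. The medians over all tested genes were -0.03 at 0 Gy and 0.00 at 4 Gy. After the length and GC correction described below, the subunit medians were -0.23 at 0 Gy and 0.04 at 4 Gy, so the sign at 4 Gy turned. By complex the correction moved the 0 Gy median of complex V to -0.25 in place of -0.38 and that of complex IV to -0.22 in place of -0.35. The sizes were small: among genes whose higher library held at least 10 CPM, 8 of 68 subunit genes were at least 1.5-fold lower with DZNep at 4 Gy (background 11.4%) and 7 of 69 at 0 Gy (background 12.5%). In both cases 0 were at least 1.5-fold higher, beside 11% and 11.3% of all such genes. Both DZNep libraries lay below both DMSO libraries in 31 of the 75 subunit genes (background 27.8%), 15 of them in complex I and 10 in complex V, and above them in 6 (background 26.3%).

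The radiation comparison asks what 4 Gy left behind at the time of harvest. Across both drug states 1 of the 75 subunit genes fell, beside 0.897% of all tested genes, and 0 rose, beside 2.17%. At an unadjusted p under 0.05, 3 subunit genes were lower and 0 higher, and DESeq2 called 0 higher. The gene that fell was NDUFA5, with 8.039 CPM after 4 Gy and 13.94 CPM after 0 Gy in the DZNep libraries, and 12.77 CPM after 4 Gy and 20.73 CPM after 0 Gy in the DMSO libraries. Its log2 fold change for radiation was -0.75 ± 0.18 (SE, adjusted p = 0.0464 in edgeR), and its 12 named pseudogenes make its counts uncertain. The call was lost with no filter on low counts (adjusted p = 0.0884) and in a model with dose alone. NDUFB6 was lower after 4 Gy in both drug states, by log2 ratios of -0.75 with DZNep and -0.30 with DMSO, and did not pass (adjusted p = 0.135).

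Taken within each drug state, the medians of the 4 Gy over 0 Gy ratios of the subunit genes lay on opposite sides of 0. Of the single genes, 36 of the 75 were above 0 in DZNep and below 0 in DMSO (background 18.6%). In DZNep the median log2 ratio over the 75 genes was 0.10 (0.02 after the length and GC correction described below), and 27 genes were below 0 (background 47.4%). In DMSO the median was -0.17, and 60 genes (80%) were below 0 (background 50.3%). Over all tested genes the medians were 0.02 and 0.00. Few genes moved far: in DZNep 3 of 68 genes at 10 CPM or more were at least 1.5-fold lower (background 4.03%), and in DMSO 1 of 69 (background 7.36%). None was 1.5-fold higher in either, beside 4.39% and 8.67%.

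**Figure D3:**
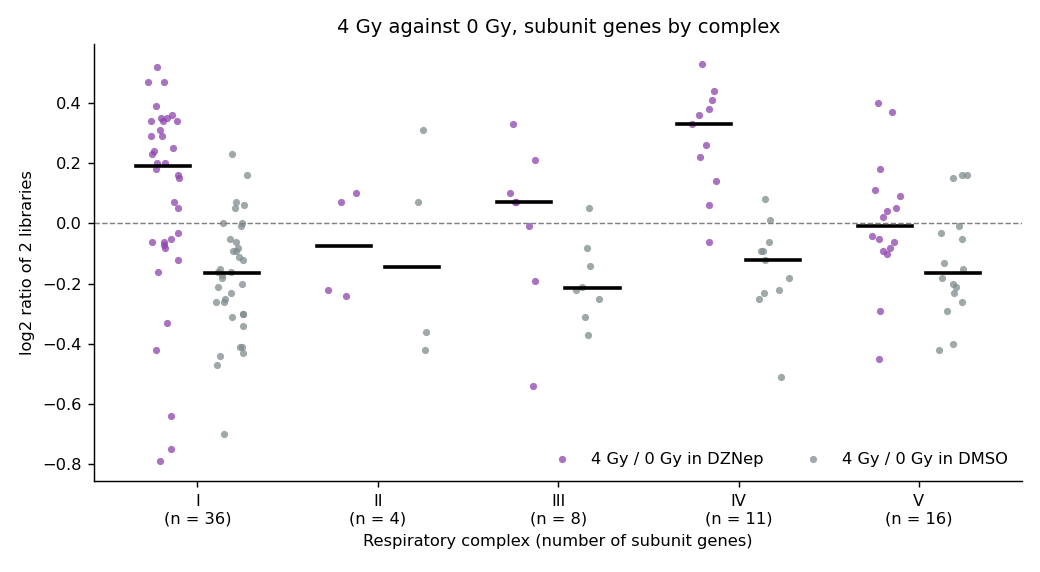
Log2 ratio of 4 Gy over 0 Gy for each of the 75 tested subunit genes by complex, in DZNep and in DMSO, with 1 point per gene and the median marked. Complex IV has a median of 0.33 in DZNep and -0.12 in DMSO, and complex V has -0.01 and -0.17.

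Of the 5 complexes, complex IV had the widest gap between these medians. Its median 4 Gy over 0 Gy log2 ratio was 0.33 in DZNep and -0.12 in DMSO, with 10 of 11 genes above 0 in DZNep. COX7C, a small subunit, had 63.17 CPM after 4 Gy and 46.5 CPM after 0 Gy in DZNep, and 56.4 CPM after 4 Gy and 60.09 CPM after 0 Gy in DMSO. COX6A1 had the highest ratio of the complex in DMSO, at 0.08. COX5A, one of the larger nuclear subunits, had the lowest in DZNep, with 399.7 CPM after 4 Gy and 416.4 CPM after 0 Gy (log2 -0.06, counting interval -0.08 to -0.04). The 95% intervals of single ratios are exact binomial intervals and cover counting error only.

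Complex I had median dose ratios of 0.19 in DZNep and -0.16 in DMSO. Its highest gene in DZNep was NDUFA13, an accessory subunit also known as GRIM-19, with 17.9 CPM after 4 Gy and 12.51 CPM after 0 Gy (log2 0.52), and in DMSO it was NDUFA7 (log2 0.23). Its lowest was NDUFA5 in both drug states. NDUFB11 had the highest DZNep over DMSO ratio of the complex at 4 Gy (log2 0.37), and NDUFA12 at 0 Gy (log2 0.11).

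Complex III had dose medians of 0.07 in DZNep and -0.21 in DMSO, which lay on the same side of 0 after the length and GC correction described below, at -0.04 and -0.22. UQCRQ was highest in DZNep (log2 0.33) and UQCRB lowest (log2 -0.54), while in DMSO UQCRC2 was highest (log2 0.05) and UQCR10 lowest (log2 -0.37). Complex II had -0.07 in DZNep (0.01 after the correction) and -0.14 in DMSO, and its membrane anchor SDHC had the opposite sign to SDHB in each drug state. SDHC was lower after 4 Gy in DZNep (log2 -0.24) and higher in DMSO (log2 0.31). SDHA was the highest of the 4 in DZNep (log2 0.10) and SDHD the lowest in DMSO (log2 -0.42).

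Complex V had dose medians near those of complex II, at -0.01 in DZNep and -0.17 in DMSO. Within it ATP5I, the subunit e that helps synthase dimers form, had 71.39 CPM after 4 Gy and 54.1 CPM after 0 Gy in DZNep, and 58 CPM after 4 Gy and 76.55 CPM after 0 Gy in DMSO. ATP5J had the opposite order, being lower after 4 Gy in DZNep (log2 -0.45) and higher in DMSO (log2 0.16).

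Subtracting the dose ratio in DMSO from that in DZNep gives the interaction of drug and dose, for which these libraries leave no error estimate. In the additive model it is part of the error of the tests above. It was above 0 in 61 of the 75 subunit genes, beside 50.4% of all tested genes, with a median log2 value of 0.29 beside 0.00. In complex IV it was above 0 in 11 of 11 genes (median 0.42), in complex I its median was 0.29, in complex III 0.30, in complex V 0.12 and in complex II 0.11. The ratio was above 0 in DZNep and below 0 in DMSO for 36 of the 75 (background 18.6%), among them 8 of the 11 complex IV genes. The 4 ratios share libraries in pairs and are not independent: the unirradiated DZNep library was the lowest of the 4 in 36 subunit genes, beside 25.1% of all tested genes, and it enters the drug ratio at 0 Gy as well as the dose ratio in DZNep.

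Summed over the genes of a complex, the order of the libraries differed between complexes. Complex IV summed to 1268 and 1109 CPM with DZNep (4 Gy, 0 Gy) and to 1233 and 1327 CPM with DMSO. Complex I summed to 2868 and 2628 CPM with DZNep and to 2848 and 3090 CPM with DMSO. Complex V summed to 4361 and 4404 CPM with DZNep and to 5144 and 5483 CPM with DMSO. In complexes I, III and IV the unirradiated DZNep library stood below the range of the other 3, in complex III by little. In complexes II and V both DZNep libraries stood below both DMSO libraries, as they did for the plentiful ATP5G2 and ATP5G3 of complex V. Complex III summed to 538.9 and 522.7 CPM with DZNep and to 525.9 and 604 CPM with DMSO, and complex II to 552.1 and 627 CPM with DZNep and to 809.8 and 710 CPM with DMSO, most of it SDHC.

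Irradiated cells with DZNep were also set against unirradiated cells with DMSO, the pair that differs in both treatments. The median log2 ratio of the 75 subunit genes was -0.19, beside -0.03 over all tested genes, and 55 were below 0 (background 51.9%). Of 69 genes at 10 CPM or more, 9 were at least 1.5-fold lower (background 15.8%) and 0 were 1.5-fold higher (background 15.3%). The lowest was NDUFB6, with 8.004 CPM in DZNep after 4 Gy and 24.72 CPM in DMSO after 0 Gy (log2 -1.62), and the highest COX6A1, with 329.6 and 241.5 CPM (log2 0.45). NDUFV1 was highest in complex I (log2 0.39), ATP5D in complex V (log2 0.44), UQCRC1 in complex III (log2 0.13) and SDHA in complex II (log2 -0.14).

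Other large protein complexes read in the same libraries had a like gap between their dose ratios. The 77 tested genes for mitochondrial ribosomal proteins had median dose ratios of -0.02 in DZNep and -0.36 in DMSO, and 37 proteasome genes had -0.06 and -0.39. The 79 genes for cytosolic ribosomal proteins had 0.23 in DZNep and -0.08 in DMSO, the same signs as the subunit genes. Their median drug ratios were -0.25 at 4 Gy and -0.54 at 0 Gy, and 29 fell with DZNep (36.7%, background 12.3%). The unirradiated DZNep library was lowest in 92.4% of them, but in 9.09% of mitochondrial ribosomal and 10.8% of proteasome genes (background 25.1%). Mitochondrial ribosomal protein genes had median drug ratios of 0.26 at 4 Gy and -0.01 at 0 Gy, with 8 rises (10.4%, background 10.8%) and 3 falls (3.9%). Proteasome genes had 0.18 and -0.20, with 0 rises and 1 fall (2.7%). The median interaction was 0.29 for the subunit genes, 0.27 for mitochondrial ribosomal proteins, 0.31 for cytosolic ribosomal proteins and 0.26 for the proteasome, beside 0.00 over all tested genes. No test compared the families.

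**Figure D4:**
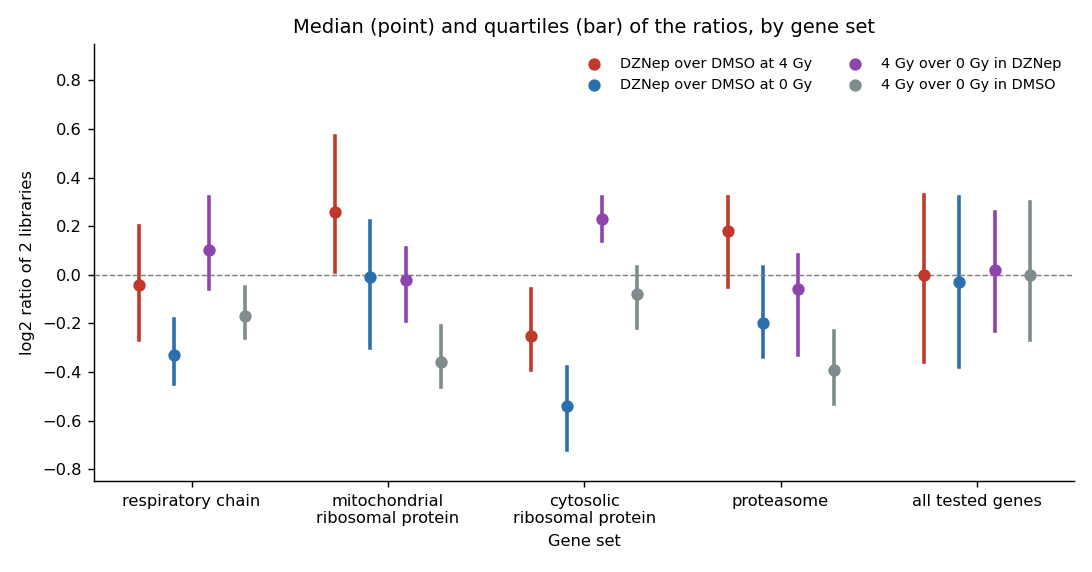
Median log2 ratio of 4 comparisons for the 75 subunit genes, the mitochondrial and cytosolic ribosomal protein genes, the proteasome genes and all tested genes, where bars run between the lower and upper quartile of the genes. Subunit genes and cytosolic ribosomal protein genes have medians above 0 for 4 Gy over 0 Gy in DZNep (0.10 and 0.23) and below 0 in DMSO (-0.17 and -0.08).

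GC content and transcript length both moved with these ratios. Across the 75 subunit genes the 4 Gy over 0 Gy log2 ratio in DZNep had a Pearson correlation of 0.44 (Spearman 0.40) with the transcript's GC percentage, and that in DMSO 0.37 (Spearman 0.33). Across 13043 genes with a known transcript the Pearson values were 0.37 and 0.13. With log2 transcript length the Pearson values of the subunit genes were -0.37 for the dose ratio in DZNep, 0.10 for that in DMSO and -0.43 for the interaction, for which GC gave 0.20. These are descriptions across genes, which are not independent and share the same 4 libraries. Subunit transcripts were shorter than most, with a median of 918 bases beside 2866 bases over the tested genes, at a similar GC content of 48.6% beside 49.4%. When a smooth trend with length and GC over all genes was removed, the median dose ratio in DZNep was 0.02 for the 75 genes in place of 0.10, 0.22 for complex IV in place of 0.33 and 0.04 for complex I in place of 0.19. The part of base composition and length in the calls was not tested. Some of the subunit lengths used were far above the median of 918 bases, among them SDHC (13566), NDUFA9 (8363) and UQCRB (5575). How much such entries weigh in the length correlations and in the correction was not tested either.

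The genes around the chain were read from lists of assembly factors, electron carriers and related enzymes. Over all tested genes 12.3% fell and 10.8% rose with DZNep, and 0.897% fell and 2.17% rose with radiation. Beside these shares, the counts of changed genes in lists this short allow no reading about a pathway. Among 13 assembly factors of complex I, NDUFAF7, a mitochondrial methyltransferase, fell with DZNep (log2 fold change -0.96 ± 0.20, SE, adjusted p = 0.00506 in edgeR), as did TIMMDC1, a membrane arm assembly factor (-0.85 ± 0.21, adjusted p = 0.0127). NDUFAF5, which hydroxylates NDUFS7, fell with radiation (-0.83 ± 0.18, adjusted p = 0.0314). Among 21 assembly factors of complex IV, COX10, which makes heme O, rose with DZNep (0.68 ± 0.17, adjusted p = 0.0119), whereas COX20, LRPPRC and CMC1 fell. LRPPRC, which stabilises mitochondrial messenger RNAs, had a log2 fold change of -0.72 (adjusted p = 0.0108).

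No gene in the lists for assembly of complexes II and III (10 tested) or of complex V (6 tested) passed for the drug in edgeR. The 6 were ATPAF1, ATPAF2, TMEM70, ATPIF1, USMG5 and C14orf2. Not all of them are assembly factors, since USMG5 and C14orf2 are themselves subunits of the synthase. Of all tested genes 12.3% fell and 10.8% rose with the drug. At an unadjusted p under 0.05, 2 of the 10 were lower, and among the 6 ATPAF2 was higher and ATPIF1 lower, while DESeq2 called 0 in both lists. The largest drug effects among the 10 were those of SDHAF4 (-0.71 on the log2 scale, adjusted p = 0.0825) and SDHAF1 (-0.56, adjusted p = 0.252), both assembly factors of complex II at under 5 CPM. ATPIF1, the inhibitor protein of the ATP synthase, had 24.12 and 20.84 CPM with DZNep, against 33.12 and 28.84 CPM with DMSO, a change of -0.46 ± 0.16 on the log2 scale (adjusted p = 0.0605). Of 16 electron carrier and ubiquinone genes, COQ10A rose (log2 fold change 0.72, adjusted p = 0.0356) and ETFB, a subunit of the electron transfer flavoprotein, fell (-0.55, adjusted p = 0.0436). CYCS, cytochrome c itself, fell with radiation (-0.82 ± 0.16, adjusted p = 0.0189).

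Of 18 genes of the TCA cycle and pyruvate dehydrogenase, IDH2 and PDHX fell with DZNep (of all tested genes 12.3% fell and 10.8% rose). IDH2, the mitochondrial NADP-dependent isocitrate dehydrogenase, had 13.89 and 10.59 CPM with DZNep, against 62.99 and 54.73 CPM with DMSO, changing by -2.28 ± 0.17 on the log2 scale (SE; edgeR's adjusted p = 5.51e-06). That change was larger than that of any subunit gene. DLAT, the acetyltransferase of pyruvate dehydrogenase, fell with radiation (-0.67 ± 0.16, adjusted p = 0.0415), and among 8 carriers and channels of the mitochondrial membranes VDAC3, an outer membrane channel, did so as well (-0.65 ± 0.16, adjusted p = 0.0497). None of those 8 passed for the drug in edgeR or DESeq2, and 1 was lower at an unadjusted p under 0.05. Of 17 genes for mitochondrial biogenesis, C10orf2, the mtDNA helicase Twinkle, rose, whereas POLG, the mtDNA polymerase, and GABPB1, a GABP subunit, fell. NRF1 had 18.1 and 15.17 CPM with DZNep, against 11.38 and 18.29 CPM with DMSO (adjusted p = 0.557), and GABPA, the DNA-binding GABP subunit, had 13.2 and 16.44 CPM with DZNep, against 21.75 and 20.79 CPM with DMSO (adjusted p = 0.0531). Neither passed. Of the 7 subunit genes that fell with DZNep and had a promoter entry, the ETS motif was in 1 (ATP5J), the YY1 motif in 1 (NDUFA7) and the NRF1 motif in 0. Among all 61 tested subunit genes with an entry, the ETS motif was in 19, the YY1 motif in 11 and the NRF1 motif in 15. With only 7 fallen genes, their motif counts allow no reading against those shares.

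The label of the line was read against marker genes. The epithelial keratins were plentiful in all libraries, and the 5 epithelial markers summed to 4303 and 3892 CPM with DZNep (4 Gy, 0 Gy) and to 1767 and 1498 CPM with DMSO, of which KRT8 and KRT18, which both rose with DZNep, made up most. EPCAM and CDH1 stayed under 0.5 CPM. The 11 markers of other cell types summed to 86.3 and 76.2 CPM with DZNep and to 115 and 89.2 CPM with DMSO, mostly CD68, while PTPRC, CD3E, CDH5 and HBB were at or near 0. Of the 3 that passed the filter, COL1A1 (-0.54, adjusted p = 0.0491) and COL3A1 (-0.74, adjusted p = 0.0301) fell with DZNep on the log2 scale, and CD68 did not pass. The keratin and collagen levels moved with DZNep, and their part in the subunit results was not tested.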

How the data were processed

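Gene counts of the 4 libraries were used as deposited, as whole numbers that were not normalized. Per the labels, the library kit was Lexogen SENSE mRNA. The submitters' processing notes name TopHat, hg19 and edgeR. The sources used here give no versions, annotation or counting step, nor its use of strand or its treatment of reads with several matches. Depth was 112461380 to 136594350 counts per library.

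Levels are CPM after TMM scaling (factors 0.9787 to 1.013). Genes with at least 1 CPM in at least 2 libraries were tested in R 4.3.3 with edgeR 4.0.16 (quasi-likelihood F test, additive model of drug and dose, all 4 libraries, Benjamini-Hochberg adjustment over 13378 genes, common biological coefficient of variation 0.163, prior degrees of freedom 11.5). SEs were obtained as the log2 fold change over the square root of F. Ratios of 2 libraries used a prior count of 2 and carry no test. Calculations were tested on simulated counts. Alternatives were DESeq2 1.42.0, other scalings, filters, folds and prior counts, models of 1 factor, and a length and GC correction with mgcv 1.9.3. Transcript lengths and GC came from GENCODE 29 (GRCh38) principal transcripts, matched by symbol, and promoters from RefSeq (GRCh38.p14). No coordinates were converted.

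Named genes were those past the threshold in either effect, the highest and lowest of each complex in each ratio at 10 CPM or more, core subunits, isoform families, and from the pathway lists those past the threshold or else the 2 with the largest drug effect; NRF1 and GABPA were added because of the motifs. The members, the lists and this rule were chosen with earlier results of these data known. Intervals and floors cover counting error only.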

Additional observations from a re-analysis of the deposited data

Results flagged for a closer look

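Several values had opposite signs under the same contrast in the other state of drug or dose. None of these differences was tested, because each group had 1 library. The median log2 ratio of DZNep over DMSO was 0.03 at 4 Gy and -0.14 at 0 Gy in complex III, and 0.11 at 4 Gy and -0.35 at 0 Gy in complex IV. The median log2 ratio of 4 Gy over 0 Gy was 0.10 in DZNep and -0.17 in DMSO over all 75 subunit genes. By complex it was 0.19 in DZNep and -0.16 in DMSO for complex I, 0.07 in DZNep and -0.21 in DMSO for complex III, and 0.33 in DZNep and -0.12 in DMSO for complex IV. Of the genes that fell with DZNep, ATP5J had a 4 Gy over 0 Gy log2 ratio of -0.45 in DZNep and 0.16 in DMSO, and NDUFV3 had 0.34 in DZNep and -0.23 in DMSO. After the length and GC correction the complex III median in DZNep was -0.04, on the same side of 0 as in DMSO (-0.22).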

How the results depend on the processing

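No paired analysis was possible because each group had 1 library and the labels carry no replicate numbers. Leaving out a library leaves no residual degree of freedom, so no test was run that way. The 11 gene calls kept their direction and side of the threshold under RLE scaling, plain library size, a 10 CPM filter and DESeq2. With no filter on low counts 2 of them were lost, NDUFC2 (DZNep, adjusted p = 0.0714) and NDUFA5 (radiation, adjusted p = 0.0884), so that radiation had 0 falls among the subunit genes. In models of 1 factor alone, which put the other factor into the error, DZNep had 2 falls and radiation 0. Among the 30 subunit genes with no named pseudogene, an alternative chosen after seeing the data, DZNep had 6 falls and radiation 0. No alternative gave a rise of a subunit gene. Over all tested genes, DZNep calls in the 1-factor model were 355 higher and 366 lower, in place of 1446 and 1640. Radiation calls, 290 higher and 120 lower, were 590 and 441 with the 10 CPM filter, 447 and 214 with DESeq2, 364 and 281 with plain library size, 134 and 65 with no filter, and 0 and 0 in the 1-factor model. The median log2 ratio of DZNep over DMSO at 4 Gy (-0.04) was 0.04 after the length and GC correction and 0.05 without genes that have a named pseudogene. At 0 Gy (-0.33) it was -0.29 with the 10 CPM filter and -0.23 after the correction. The median of 4 Gy over 0 Gy in DZNep (0.10) was 0.02 after the correction, and in DMSO (-0.17) it was -0.12 with the 10 CPM filter. By complex, the correction turned the sign of the 4 Gy over 0 Gy median in DZNep for complex III (-0.04 in place of 0.07) and complex II (0.01 in place of -0.07). With NDUFA4 counted in complex I, the 4 Gy over 0 Gy medians of complex IV were 0.35 in DZNep and -0.15 in DMSO. Its DZNep over DMSO medians were then 0.13 at 4 Gy and -0.35 at 0 Gy. The causes of these shifts were not tested.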
